A study of Mus musculus with 10 samples.

Results

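Gene expression was compared between mouse embryonic stem cells (ESCs) depleted of Smc3 and ESCs that had received the empty vector. The comparison takes in 6 of the 10 arrays of the series, 2 with the empty vector, 2 with Smc3 shRNA1 and 2 with Smc3 shRNA2, as their labels name them, and Smc3 depletion is the mean of both hairpin groups minus the empty vector mean. The other 4 arrays are of ESCs depleted of Wapal (gene symbol Wapl) with Wapal shRNA1 or Wapal shRNA2, and serve here only where the depletions are set beside each other. All cells were CJ9 ESCs, a single line derived from strain 129SvJ that had been adapted to gelatin. Cells were infected for 48 h with lentivirus in polybrene at 10 µg/mL, and then selected with puromycin (4 µg/mL) in ESC medium that held LIF, with 48 h of culture after infection. The empty vector was pLKO.1 with no hairpin, so controls shared the infection and the drug selection but expressed no shRNA. Replicates are called biological. Whether each had its own infection or culture is in no label, and the p-values below then measure only the spread between these arrays, which may be technical. The sample numbers of the Smc3 arrays form a later run than those of the empty vector and Wapal arrays. Any difference in processing between the runs could not be told apart from Smc3 depletion, and was not tested.

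Smc3 is a core subunit of cohesin, a ring built with Smc1, Rad21 and a Stag subunit that encircles chromatin. Nipbl and Mau2 load the ring, Wapl opens it for release, and Esco enzymes acetylate Smc3 to keep it closed. Cohesin holds sister chromatids together until anaphase and, with CTCF, forms chromatin loops that bring enhancers and promoters near each other. In ESCs, cohesin and Nipbl sit at enhancers of genes that keep the cells pluripotent.

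RNA of each sample was hybridised to an Affymetrix Mouse Genome 430 2.0 array, and the deposited values are RMA intensities per probe set. Changes are differences of log2 intensity from limma with their standard error (SE), p-values are adjusted by Benjamini-Hochberg over 45037 probe sets, and a gene "rose" or "fell" where its adjusted p was under 0.05. Each of 18193 genes is represented by its brightest probe set. The number of arrays limits the precision. The log2 difference between replicates had an SD of 0.25 for the empty vector, 0.190 for Smc3 shRNA1 and 0.192 for Smc3 shRNA2. Over all probe sets, empty vector replicate 1 correlated at 0.990 to 0.991 with the Smc3 shRNA2 arrays and at 0.987 to 0.988 with the Smc3 shRNA1 arrays, whereas empty vector replicate 2 correlated at 0.991 to 0.992 with all 4. The labels name no batch. Where it matters, values are therefore also given within these pairings, as Smc3 shRNA2 minus empty vector replicate 1 and Smc3 shRNA1 minus empty vector replicate 2. A model with the pairing as a term, tried as an alternative, has a single mean for the depleted cells. The term splits the depleted arrays exactly by hairpin. A difference between the hairpins that the controls do not share therefore counts as spread in that model.

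The targeted gene fell on every depleted array. Smc3 had intensities of 1536 and 1555 with the empty vector, 187 and 176 with shRNA1, and 223 and 189 with shRNA2. The groups did not overlap, and the change was -3.00 ± 0.10 in log2 (SE, n = 4 against 2; limma, adjusted p = 3.26e-05). The level with shRNA1 was lower than with shRNA2 by 0.18 ± 0.12 in log2, which did not pass (adjusted p = 0.412). A dimmer probe set of Smc3 changed by -1.23 ± 0.14 (adjusted p = 0.00225). Wapl, which the hairpins do not target, had 2500 and 2648 with the empty vector and 2511 to 3104 on the depleted arrays, a change of 0.11 ± 0.09 (adjusted p = 0.555).

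The cells still expressed the defining markers of ESCs. All 8 ESC markers were above a log2 value of 6, under which signal and background are hard to separate, and their summed intensity was 63134 and 66454 with the empty vector and 57626 to 63392 on the depleted arrays. Of these markers, Nanog and Zfp42 fell and the others did not pass, and the median change was -0.20. Dppa5a, with 20409 to 21536 on the 6 arrays, weighs most in the sum, which therefore shows little of the falls. Markers of other cells were mostly dim. All 6 endoderm markers, 4 of 4 measured mesoderm markers, 7 of 8 measured fibroblast markers, 5 of 6 trophectoderm markers and 3 of 5 neural markers had a mean under a log2 of 6.

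**Figure D1:**
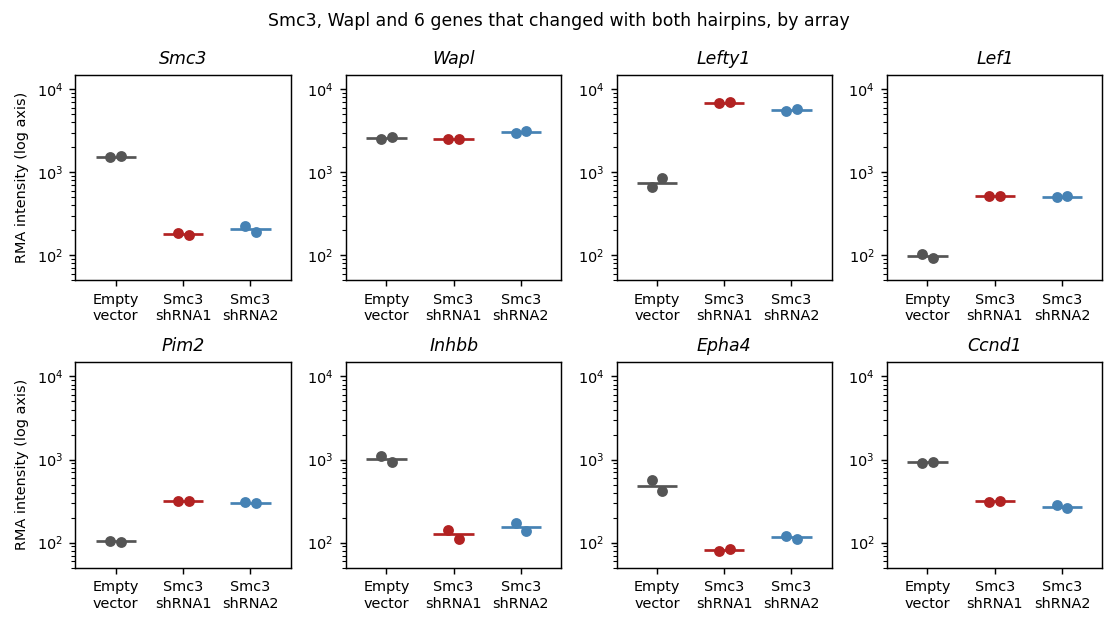
RMA intensity (log axis) of 8 genes on the 6 arrays, with empty vector in grey, Smc3 shRNA1 in red and Smc3 shRNA2 in blue; each point is an array and each line the geometric mean of its group. Smc3 lies at 1536 and 1555 with the empty vector and between 176 and 223 with the hairpins, whereas Wapl spans 2500 to 3104 over all groups; Lefty1, Lef1 and Pim2 rose, and Inhbb, Epha4 and Ccnd1 fell, on all 4 depleted arrays.

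With Smc3 depletion, 1114 genes rose and 718 fell, which is 6.12% and 3.95% of the 18193 genes. Of these, 961 of the genes that rose had all 4 depleted arrays above both empty vector arrays, and 674 of those that fell had them below. The share of all genes without overlap is not given here. The calls were made from these same arrays, so a lack of overlap is no further support for them, also for the single genes below. A stricter set of genes moved the same way, over 1.5-fold, under each hairpin, and it held 267 genes that rose (1.47% of all) and 195 that fell (1.07%). Over 2-fold with each hairpin, 62 genes rose and 45 fell. The stricter set was the steadier, which follows in large part from choosing it on these same arrays for larger changes. Of its 462 genes, 391 kept their call without each of the 6 arrays in turn (216 that rose and 175 that fell), whereas 667 of all 1832 called genes did. The counts of genes that rose and fell were 499 and 411 without empty vector replicate 1, and 514 to 615 and 334 to 402 without 1 array of the depleted cells. Without empty vector replicate 2 they were 1263 and 596.

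The genes that rose most with both hairpins, ranked by the smaller of their changes, began with Lefty1, Hs6st2 and Lef1. Lefty1, a secreted antagonist of Nodal that Nodal signalling itself induces, had intensities of 663 and 842 with the empty vector, 6774 and 7024 with shRNA1, and 5436 and 5844 with shRNA2. All 4 depleted arrays were above both controls, and the change was 3.06 ± 0.12 (adjusted p = 3.26e-05), an 8.35-fold rise. Hs6st2, which adds sulfate groups to heparan sulfate chains, had 12.9 and 18.4 with the empty vector, 97.9 and 131 with shRNA1, and 255 and 228 with shRNA2. It was higher on all 4 depleted arrays, by 3.42 ± 0.17 (adjusted p = 6.77e-05), and higher with shRNA2 than with shRNA1. Its controls were dim, and an offset of 16 gave 2.53. The 3 other probe sets of Hs6st2, all dim, gave -0.04, 0.84 and 0.17, and the mean over its probe sets was 1.10. Lef1, a transcription factor that works with beta-catenin in Wnt signalling, had 104 and 93.0 with the empty vector and 498 to 522 on the 4 depleted arrays. Its change of 2.38 ± 0.09 (adjusted p = 3.26e-05) was nearly equal for the hairpins, at 2.39 and 2.37, and its other probe set, which was dim, rose by 1.58 ± 0.12.

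Other genes of this group were the secreted proteins Dmkn (2.36 ± 0.10), Fgfbp1 (2.01 ± 0.17), which binds fibroblast growth factors, and Cthrc1 (2.38 ± 0.12), and the kinase Pim2, which had 106 and 102 with the empty vector and 299 to 321 on the depleted arrays. Pla2g7, an enzyme that inactivates platelet-activating factor, rose by 1.73 ± 0.09. Pxdn, which crosslinks collagen IV, rose by 1.63 ± 0.16. Glod5 (2.12), Gm364 (1.92) and Spink10 (1.58) also ranked among the first 15. The remaining members of the ranking were the interferon-inducible GTPases Gbp2b, Gbp2 and Irgm1, described further on. All 15 kept their call without each array in turn.

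After Smc3 itself, the gene that fell most with both hairpins was Inhbb, the beta-B subunit of activin B. Its intensities were 1111 and 940 with the empty vector, 143 and 111 with shRNA1, and 171 and 137 with shRNA2. The groups did not overlap, and the change was -2.88 ± 0.14 (adjusted p = 6.77e-05). A dimmer probe set of Inhbb changed by -0.31 ± 0.09 and did not pass (adjusted p = 0.0879). Epha4, a receptor for ephrins, had 562 and 413 with the empty vector, 78.5 and 83.1 with shRNA1, and 121 and 112 with shRNA2, a change of -2.31 ± 0.13 (adjusted p = 0.000117), and its 4 other probe sets fell too, with -0.99 to -2.10. Ccnd1, which encodes cyclin D1, the partner of Cdk4 and Cdk6 in G1, had 917 and 936 with the empty vector and 261 to 318 on the depleted arrays. This was a change of -1.66 ± 0.09 (adjusted p = 9.51e-05) with no overlap, and the other probe sets of the gene gave -1.60 and -1.47. Tfap2c, a transcription factor of trophectoderm and early germ cells, had 186 and 332 with the empty vector and 48.5 to 94.2 on the depleted arrays, so its controls differed by more than those of most genes, and its change was -1.90 ± 0.20 (adjusted p = 0.00159).

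The Ras-family GTPase Mras (-1.82 ± 0.13), the glutathione transferase Gsta3 (-1.65 ± 0.09), the metal transporter Slc11a1 (-1.72 ± 0.09) and the carbonic anhydrase Car2 (-1.48 ± 0.11) fell to a similar extent with both hairpins. Btbd11, Tdrp, Fam43a, AA414768, A930004D18Rik and 2210409E12Rik completed the ranking, with changes from -1.56 (A930004D18Rik) to -1.82 (Btbd11). Each kept its call without each array in turn. In the plot of the change with each hairpin most of these genes lie close to the line of equal change, while other genes lie along the axis of 1 hairpin only.

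**Figure D2:**
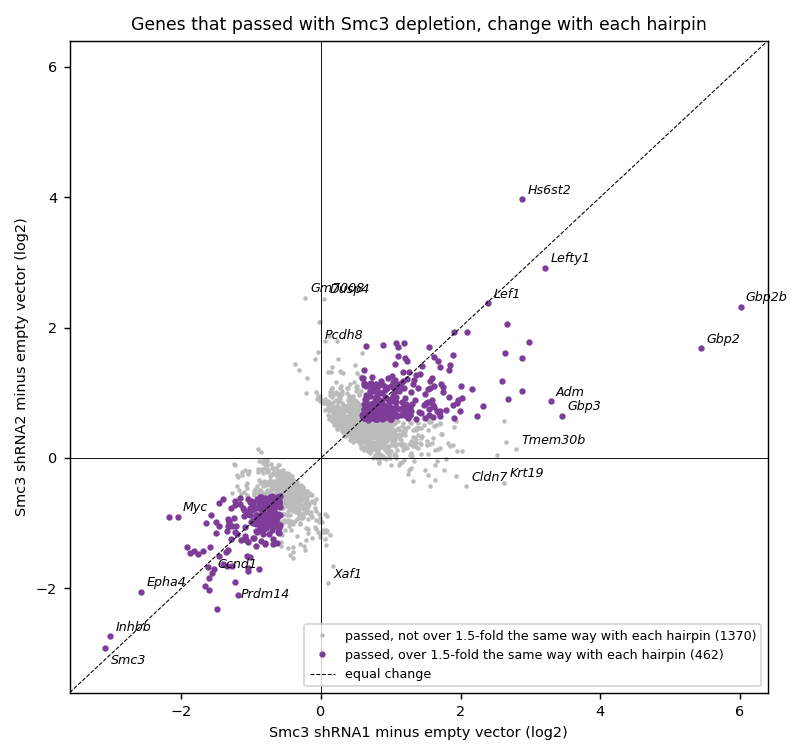
Change in log2 intensity against the empty vector with Smc3 shRNA1 (horizontal axis) and Smc3 shRNA2 (vertical axis) for the 1832 genes that passed with Smc3 depletion, with the 462 genes over 1.5-fold and of the same sign for each hairpin in purple, the other 1370 in grey, and the line of equal change dashed. Both axes share the same 2 control arrays; Lef1 lies at 2.39 and 2.37, Gbp2b at 6.01 and 2.32, and Krt19 at 2.62 and -0.38.

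Genes of the epiblast states changed in opposite directions. ESCs in LIF hold a naive state that resembles the epiblast before implantation, which gives way to a formative and then a primed state as cells become ready to differentiate. Of 20 measured naive-state factors, 11 fell and 2 rose, with a median change of -0.55 against 0.01 over all genes. Of 17 measured formative and primed genes, 8 rose and 1 fell, with a median of 0.16.

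Prdm14, a repressor that guards the naive state, had 670 and 763 with the empty vector, 298 and 310 with shRNA1, and 208 and 176 with shRNA2. The groups did not overlap, and it fell by 1.57 ± 0.11 on the log2 scale (adjusted p = 0.00023). Gbx2 and Tbx3, transcription factors downstream of LIF signalling, changed by -1.55 ± 0.18 and -1.32 ± 0.14. Tbx3 had 1608 and 1848 with the empty vector and 579 to 910 on the depleted arrays. Tfcp2l1 (-0.95), Esrrb (-0.77), Nr0b1 (-0.73), Sall1 (-0.68), Mybl2 (-0.61), Zfp57 (-0.55) and Klf2 (-0.51) also fell. Klf4 fell by 0.79, but it lay at -0.24 with shRNA1 and -1.35 with shRNA2, a difference between the hairpins that passed (adjusted p = 0.00226). The members that rose were Dppa3 (0.48) and Socs3 (0.46), a feedback inhibitor of LIF signalling, and both did so with shRNA1, at 0.82 and 0.94, whereas shRNA2 gave 0.14 and -0.01. Between 9 and 11 members fell without any of the 6 arrays in turn, whereas Dppa3 and Socs3 kept their calls only without empty vector replicate 2.

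On the formative side, Pou3f1 (also named Oct6) had 116 and 104 with the empty vector, 396 and 392 with shRNA1, and 329 and 263 with shRNA2. It rose by 1.63 ± 0.11 (adjusted p = 0.000246). Otx2, a homeobox factor that directs the exit from the naive state, had 668 and 773 with the empty vector and 1619 to 2119 on the depleted arrays, a rise of 1.37 ± 0.10 (adjusted p = 0.000247). All depleted arrays lay above both controls for both genes. Lef1, Grhl2 (0.90), the de novo DNA methyltransferases Dnmt3b (0.64) and Dnmt3a (0.48), Sall2 (0.62) and Wnt8a (0.42) rose too, and Epha4 fell. Fgf5, a marker of the primed epiblast, was dim, with 20.9 to 26.1 on all 6 arrays and a change of 0.07 (adjusted p = 0.787). The count of members that rose was 5 without empty vector replicate 1 or Smc3 shRNA1 replicate 2, and 6 or 7 without each of the others.

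The core pluripotency factors changed less. Pou5f1 (Oct4) had 8516 and 8887 with the empty vector and 7572 to 7999 on the depleted arrays, a change of -0.16 ± 0.09 that did not pass (adjusted p = 0.328). Nanog had 6366 and 6874 with the empty vector, 4770 and 4754 with shRNA1, and 3439 and 3384 with shRNA2. It fell by 0.71 ± 0.09 in log2 (adjusted p = 0.00297), more with shRNA2 than with shRNA1 (adjusted p = 0.0226). Of 19 measured core genes, 2 fell (Nanog and Zfp42, at -0.44) and 2 rose, the DNA methylation cofactor Dnmt3l (0.84 ± 0.10) and the Polycomb cofactor Jarid2 (0.41), and the median was -0.04. The call of Jarid2 was lost without any of the arrays in turn and that of Zfp42 without most, and those of Nanog and Dnmt3l were kept without each.

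**Figure D3:**
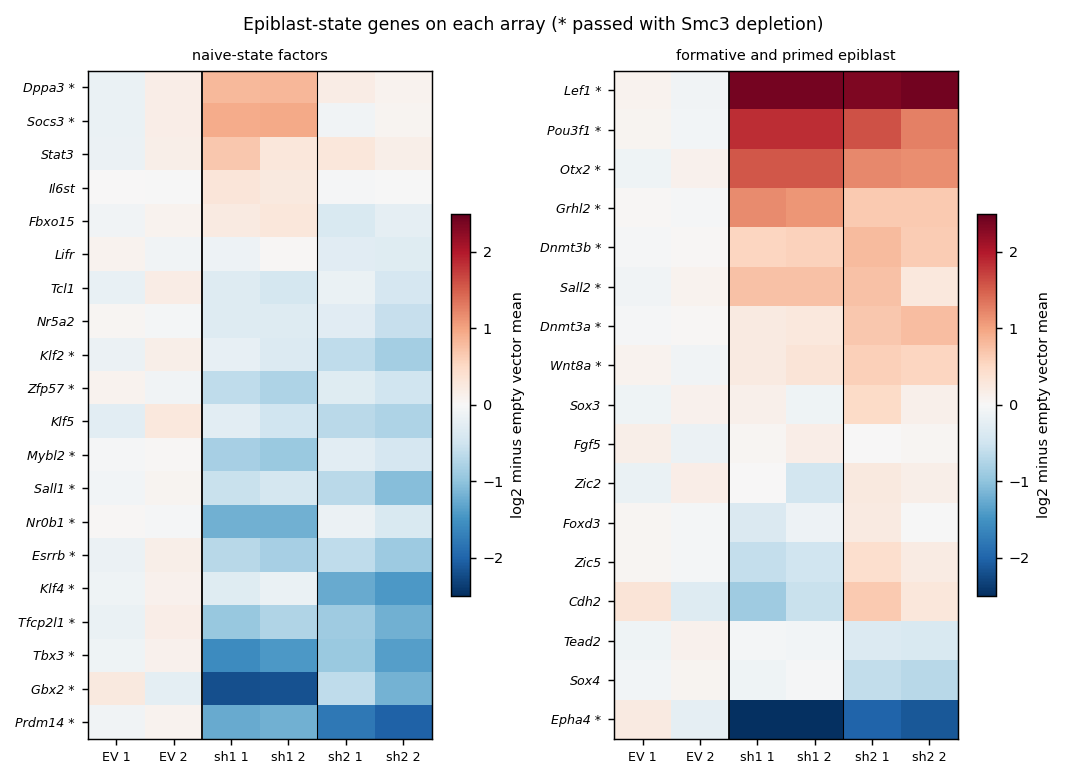
Log2 intensity minus the mean of the 2 empty vector (EV) arrays for the measured naive-state factors (left) and formative and primed genes (right) on each array, with Smc3 shRNA1 as sh1 and shRNA2 as sh2 and with replicate numbers; red is higher, blue is lower, values beyond 2.5 take the end colour, and a star marks genes that passed. The lower part of the left panel is blue for both hairpins from Tfcp2l1 (-0.95) to Prdm14 (-1.57), and Lef1, Pou3f1 and Otx2 are red for both in the right panel.

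Ligands, inhibitors and targets of the Nodal and activin pathway moved in both directions. Nodal and activin bind activin receptors and act through Smad2, Smad3 and Foxh1, and Lefty proteins and follistatin (Fst) restrain them outside the cell. Of 21 measured genes, 6 rose and 4 fell, with a median of 0.13. Lefty2, the paralog of Lefty1, had 332 and 510 with the empty vector, 1817 and 1862 with shRNA1, and 821 and 899 with shRNA2. It rose by 1.61 ± 0.16 (adjusted p = 0.00117), more with shRNA1 (adjusted p = 0.00883). Skil, a Smad repressor and Nodal target, rose by 1.35 ± 0.11, Foxh1 by 0.59, the ligand Nodal by 0.57 ± 0.09 and the receptor Acvr2a by 0.41. Nodal had 2334 and 2443 with the empty vector and 3197 to 4071 on the depleted arrays. Besides Inhbb, the antagonist Fst fell (-1.18 ± 0.11), as did Pcsk6 (-0.49), a protease that processes Nodal, and the inhibitor Smad7 (-0.41). The calls of Acvr2a and Smad7 were lost without any of the arrays in turn. Smad2 (-0.14), Smad3 (-0.18) and Tdgf1 (0.31), the Nodal coreceptor, did not pass. Without single arrays, 4 to 6 members rose and 2 or 3 fell, with 2 falling without empty vector replicate 1, Smc3 shRNA1 replicate 2 or Smc3 shRNA2 replicate 1.

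Members of other signalling pathways changed singly. Of 19 measured BMP genes, 5 fell and 2 rose. The ligand Bmp4 had 1049 and 785 with the empty vector and 469 to 548 on the depleted arrays, a change of -0.86 ± 0.12, and Id4 (-1.50 ± 0.14), a target of the pathway, and the inhibitor Smad6 (-0.96) fell as well. Id2 rose, by 1.11, with 424 and 294 with shRNA1 and 141 and 172 with shRNA2 against 110 and 106. Among 20 measured Wnt genes the receptor Fzd7 rose (0.57), and the secreted inhibitors Sfrp1 (-1.27 ± 0.11) and Notum (-0.69) fell, next to the rise of Lef1. The Hedgehog receptor Ptch1, itself a target of the pathway, had 521 and 675 with the empty vector, 2188 and 2261 with shRNA1, and 858 and 793 with shRNA2. It rose by 1.19 ± 0.12, and the effector Gli2 fell by 0.90 ± 0.17, losing its call without some arrays. In the list of FGF and ERK feedback genes, 3 of 19 rose and 3 fell, and 2 of those that rose were Egr1 (1.23 ± 0.15) and Dusp4, an ERK phosphatase. Dusp4 was at 83.2 and 77.4 with the empty vector, 78.0 and 87.9 with shRNA1, and 486 and 391 with shRNA2, and it was called with shRNA2 alone. Without single arrays, BMP genes fell in 3 cases (without empty vector replicate 1, Smc3 shRNA1 replicate 2 or either Smc3 shRNA2 array) or 4, and FGF and ERK genes in 1 (without empty vector replicate 1 or Smc3 shRNA2 replicate 2), 2 or 3.

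Myc, the proto-oncogene that supports self-renewal of ESCs, fell with both hairpins. It had 274 and 214 with the empty vector, 62.8 and 54.2 with shRNA1, and 138 and 122 with shRNA2. The groups did not overlap, the change was -1.48 ± 0.13 (adjusted p = 0.0007), and shRNA1 lowered it by 1.15 more than shRNA2 on the log2 scale (adjusted p = 0.00347). Of 11 measured genes of the Myc network, Mycn (0.42) and Mxd4 (0.60) rose, and the former kept its call without only 1 of the 6 arrays.

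Of 19 measured genes of cohesin itself, 1 rose by its brightest probe set, Stag2, besides the fall of Smc3. Stag2 had 692 and 723 with the empty vector, 1404 and 1395 with shRNA1, and 1063 and 1170 with shRNA2, with no overlap, and rose by 0.82 ± 0.09 (adjusted p = 0.00192), keeping its call without each array. Stag2 encodes the subunit that joins the ring through Rad21. The partners Rad21 (-0.15, adjusted p = 0.395) and Smc1a (0.04), the loaders Nipbl (0.36 ± 0.10, adjusted p = 0.0636) and Mau2 (0.19), Ctcf (-0.09) and the paralog Stag1 (0.33) did not pass by their brightest probe sets. Of the 4 other probe sets of Nipbl, 2 rose, by 0.43 ± 0.09 (adjusted p = 0.0285) and 0.38 ± 0.09 (adjusted p = 0.0361), and 2 dim ones did not pass (0.07 and 0.04). Nipbl and Stag1 passed with an offset of 16, in the fit of all 10 arrays and without dim probe sets, so that 3 genes of the list rose under each of these. In the list of condensin and Smc5/6 genes, 1 of 14 fell (Nsmce3, -0.41), a call that was lost without any of the arrays in turn.

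Of 18 measured genes of germ cells and meiotic cohesin, 9 rose and 0 fell, with a median of 0.35 (0.55 for shRNA2 minus empty vector replicate 1 and 0.31 for shRNA1 minus empty vector replicate 2), and 17 of 18 changes were above 0. Stag3, the meiotic Stag subunit, had 157 and 189 with the empty vector, 221 and 205 with shRNA1, and 327 and 376 with shRNA2, a rise of 0.67 ± 0.11 (adjusted p = 0.0108) that did not pass with shRNA1 alone (0.31, adjusted p = 0.209). Smc1b, the meiotic Smc1, had 104 and 142 with the empty vector and 183 to 309 on the depleted arrays, a rise of 0.96 ± 0.18 (adjusted p = 0.0145). All 4 depleted arrays were above the controls for both subunits. Sycp2 (0.98), a protein of the synaptonemal complex, Mael (0.92), which silences transposons in the germ line, and Taf7l (0.73) also rose, as did Tex101 (0.98), Slc25a31, Mov10l1 and Sycp1. Rec8 (0.27) and Ddx4 (0.27) did not pass. The number that rose was 5 without empty vector replicate 1, 6 without Smc3 shRNA2 replicate 2, and 7 to 9 without the others. It was 5 with the pairing of control and hairpin arrays as a term, under which Stag3 lost its call (adjusted p = 0.0872).

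Polycomb targets, which trimethylated histone H3 at lysine 27 keeps silent in ESCs, were mostly dim. Of 147 measured developmental transcription factors of this kind, 129 had a mean under a log2 of 6, 5 rose and 3 fell, and the median was 0.01. Of the 18 that were not dim 3 rose and 2 fell, and of all 9721 such genes 803 rose and 593 fell. Sox11, a transcription factor of neural progenitors, was among those that rose, with 206 and 205 with the empty vector and 408 to 446 on the depleted arrays, a rise of 1.06 ± 0.09 (adjusted p = 0.00056). Twist1 (0.64) and Wt1 (0.62) rose at low levels, and Neurod1 rose with shRNA1 (1.31) and not with shRNA2 (-0.35). Without single arrays 1 (empty vector replicate 1), 2 (Smc3 shRNA1 replicate 1 or Smc3 shRNA2 replicate 1), 3 or 5 of these factors rose, and 1 fell without empty vector replicate 1 or Smc3 shRNA1 replicate 2. In the Hox clusters 29 of 33 measured genes were dim, Hoxb13 rose by 1.41 ± 0.11 and Hoxd13 fell by 0.51.

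Of 7 measured genes that the study followed as Polycomb targets, 5 rose, a list chosen on these samples whose direction is not independent evidence. They were Lefty1, Sox11, Ppp1r3c (1.01), Fos (0.94) and Twist1, while Hoxd1 (0.47, adjusted p = 0.219) and Snai2 (0.10, adjusted p = 0.687) did not pass. Without single arrays this count was 2 (empty vector replicate 1, Smc3 shRNA1 replicate 1 or either Smc3 shRNA2 array), 4 or 5. Ppp1r3c, a glycogen-targeting phosphatase subunit, had 25.8 and 51.8 with the empty vector, 132 and 131 with shRNA1, and 35.3 and 48.2 with shRNA2, so its shRNA2 arrays overlapped the controls. Of 35 measured Polycomb subunits and cofactors, Cbx6 (-1.03 ± 0.10) and Epop (-0.96 ± 0.12), a cofactor of PRC2, fell, and Jarid2, Bcor and Yaf2 rose by 0.41 to 0.50. All 3 rises were lost without Smc3 shRNA1 replicate 2 or Smc3 shRNA2 replicate 2, and 1 subunit rose without empty vector replicate 1, Smc3 shRNA1 replicate 1 or Smc3 shRNA2 replicate 1.

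Lineage markers gave few calls in number, but not in each list a small share. Of all genes 6.12% rose and 3.95% fell. In the mesoderm list 5.263% rose and 5.263% fell. In the ectoderm and neural list 5.556% rose and 16.67% fell. In the trophectoderm list 12.5% rose and 16.67% fell, and in the endoderm and basement membrane list 13.04% rose. Of 19 mesoderm markers 1 rose and 1 fell, of 18 ectoderm and neural markers 1 rose and 3 fell, including neuronal tubulin Tubb3 (-1.10 ± 0.13), and of 23 endoderm and basement membrane markers 3 rose. In the trophectoderm list 3 of 24 rose and 4 fell, and 1 rose without empty vector replicate 1, Smc3 shRNA1 replicate 1 or Smc3 shRNA2 replicate 2, or with the pairing of control and hairpin arrays as a term. Those that fell were Tfap2c, Bmp4, the connexin Gjb5 (-1.39 ± 0.09) and Lgals3 (-0.74), and Cdx2, a factor that defines trophectoderm, had 25.9 to 37.7 on all 6 arrays with a change of -0.09 (adjusted p = 0.831). The keratin Krt19 was at 38.03 and 51.6 with the empty vector, 312 and 237 with shRNA1, and 30.0 and 38.5 with shRNA2, a call with shRNA1 that shRNA2 did not share, and the hairpins differed (adjusted p = 0.000395). Summed over the 6 trophectoderm markers, intensity was 272 and 254 with the empty vector, 539 and 474 with shRNA1 and 223 and 230 with shRNA2. Of 27 measured fibroblast genes, 6 rose (22.2%) and 1 fell (3.70%). Most of them were dim (19 of 27), and of the 8 that were not 1 rose and 1 fell. The defining collagens Col1a1, Col1a2 and Col3a1 were dim, Thy1 fell (-0.92), and the sum of 8 fibroblast markers was 312 and 364 with the empty vector and 252 to 327 on the depleted arrays. Without single arrays 1 to 3 of the fibroblast genes rose, with 1 without Smc3 shRNA1 replicate 2 and 2 without Smc3 shRNA1 replicate 1 or Smc3 shRNA2 replicate 1. The single rises in mesoderm and ectoderm were lost without each array of the depleted cells, and of the endoderm markers 1 rose without any array other than empty vector replicate 1.

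In the list for epithelial to mesenchymal transition, 7 of 24 measured genes rose and 0 fell, with a median of 0.27. Epcam, an adhesion molecule of epithelia and ESCs, had 1852 and 2160 with the empty vector, 5107 and 5105 with shRNA1, and 3731 and 3704 with shRNA2. It rose by 1.12 ± 0.10 (adjusted p = 0.0007) with no overlap. Esrp1, an epithelial splicing regulator (1.56 ± 0.10), the tight junction protein Cldn6 (1.14 ± 0.10) and Grhl2, a transcription factor of epithelia, rose with both hairpins. Cldn7 was at 2.08 with shRNA1 and -0.44 with shRNA2, and Cdh1 (0.16), Cldn3 (0.31), Ocln (0.33) and Krt18 (0.41), also of epithelia, did not pass. Of mesenchymal genes, the protease Mmp2 (0.96 ± 0.16) and Twist1 rose, and Vim (0.12), Zeb1 (-0.34) and Snai1 (0.15) did not pass. Between 6 and 8 rose without single arrays. Among annexins and S100 proteins 5 of 18 rose and 1 fell, led by Anxa2, which had 273 and 535 with the empty vector, 3200 and 2461 with shRNA1, and 682 and 886 with shRNA2. Its rise was 1.95 ± 0.25 (adjusted p = 0.00333). The count for the annexins and S100 proteins was 2 without empty vector replicate 1, 3 without each array of the depleted cells and 6 without empty vector replicate 2.

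Of 38 measured interferon-inducible genes, 16 rose, 3 fell and 19 did not pass, and the guanylate-binding proteins Gbp2b and Gbp2 changed most. Interferon gamma induces such GTPases, which attack intracellular pathogens, in part through Irf1, which binds interferon-stimulated response elements. The median change of the list was 0.30, and 20 of the 38 were dim. Gbp2b had intensities of 7.78 and 11.8 with the empty vector, 737 and 517 with shRNA1, and 36.5 and 62.5 with shRNA2. Gbp2 had 12.1 and 13.05 with the empty vector, 643 and 463 with shRNA1, and 34.9 and 46.5 with shRNA2. All depleted arrays were above both controls, those of shRNA1 by far the most, and the changes were 4.16 ± 0.25 and 3.56 ± 0.16 (adjusted p = 0.000139 and 5.74e-05). With the controls far below a log2 of 6 these sizes are not exact, and with an offset of 16 they were 2.97 and 2.64. The family is made of close paralogs, and how far its probe sets hybridise with each other's transcripts was not tested. Irgm1, an immunity-related GTPase, had 43.1 and 49.95 with the empty vector, 321 and 365 with shRNA1, and 133 and 136 with shRNA2, a rise of 2.21 ± 0.10 (adjusted p = 6.77e-05).

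The RefSeq promoter windows (GRCm38.p6, from 250 bases before to 50 after the transcription start, read on the strand of the gene) of these 3 GTPases are shown because each holds the core of an interferon-stimulated response element, taken as GAAA followed after any 2 bases by GAAA on either strand, which is printed in capitals. In Irgm1, 2 overlapping copies make up the capitals. Gbp2 lies at chr3:142620413-142620712 on the plus strand, Gbp2b at chr3:142594597-142594896 on the plus strand and Irgm1 at chr11:48871371-48871670 on the minus strand.
Gbp2: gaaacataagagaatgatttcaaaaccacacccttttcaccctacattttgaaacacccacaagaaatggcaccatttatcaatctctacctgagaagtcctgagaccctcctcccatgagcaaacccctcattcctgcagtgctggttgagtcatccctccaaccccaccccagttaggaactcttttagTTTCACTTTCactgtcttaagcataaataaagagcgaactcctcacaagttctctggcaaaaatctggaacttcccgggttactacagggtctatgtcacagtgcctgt
Gbp2b: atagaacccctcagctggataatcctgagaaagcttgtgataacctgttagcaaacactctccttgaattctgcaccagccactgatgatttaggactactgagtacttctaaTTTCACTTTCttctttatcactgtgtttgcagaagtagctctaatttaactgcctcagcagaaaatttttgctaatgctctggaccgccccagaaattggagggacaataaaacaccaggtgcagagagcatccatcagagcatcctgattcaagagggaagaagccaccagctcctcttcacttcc
Irgm1: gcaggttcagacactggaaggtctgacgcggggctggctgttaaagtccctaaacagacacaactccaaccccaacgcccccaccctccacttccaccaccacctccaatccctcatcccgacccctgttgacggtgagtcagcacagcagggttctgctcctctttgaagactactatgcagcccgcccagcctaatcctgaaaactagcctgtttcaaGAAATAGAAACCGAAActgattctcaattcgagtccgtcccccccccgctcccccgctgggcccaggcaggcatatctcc
Windows were matched for 14367 of the 18193 genes, and 3.64% of these genes held this core in a window. Among the interferon genes, 9 of 15 with a window that rose held it (60%), as did 8 of 14 that did not pass (57.1%), so its presence in this window did not separate the members that rose from those that did not. Of genes over 1.5-fold higher with each hairpin 5.39% held the interferon-stimulated core, and of genes over 1.5-fold lower 8.97%.

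Other members of the interferon list followed. The transcription factor Irf1 (1.05), the peptide transporters Tap1 (1.07) and Tap2 (0.91), the immunoproteasome subunits Psmb8 (1.44 ± 0.18) and Psmb9 (0.75), and Gbp3 (2.05), Gbp7 (1.28) and Igtp (1.02) rose, and among them Psmb8 had 22.8 and 25.7 with the empty vector, 170 and 135 with shRNA1, and 36.1 and 22.7 with shRNA2. Bst2 (tetherin), which holds budding virus at the cell surface, rose with both hairpins, from 175 and 181 to 543 and 622 with shRNA1 and 459 and 474 with shRNA2. Oasl2 (0.41) and Cxcl10 rose too, and H2-K1 (0.31, adjusted p = 0.0896) did not pass. Ifit1 (0.15), Ifit3 (-0.17), Mx1 (0.03), Irf7 (0.06) and Rsad2 (0.33) did not pass, and Oas1a (-0.88 ± 0.09), Ifitm1 (-0.77) and Xaf1 (-0.91) fell. Xaf1 had 574 and 650 with the empty vector, 678 and 628 with shRNA1, and 161 and 161 with shRNA2, and only shRNA2 was called against the empty vector (adjusted p = 0.000182). Of the list, 18 genes were higher with shRNA1 than with shRNA2 and 1 was lower. The median was 0.14 for shRNA2 minus empty vector replicate 1 and 0.46 for shRNA1 minus empty vector replicate 2, and 12 or 13 members rose without any of the arrays in turn. With the pairing of control and hairpin arrays as a term 9 rose, and Psmb8 and Xaf1 lost their calls.

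Genes of the hypoxia response and glycolysis rose with shRNA1 and differed between the controls. Of 36 measured genes 10 rose and 0 fell, with a median of 0.39, and 21 were higher with shRNA1 than with shRNA2. Between the controls the median difference was 0.53, with empty vector replicate 2 above replicate 1, which is more than the median change with Smc3 depletion. Adm, a vasodilator peptide induced by hypoxia, had 41.9 and 49.97 with the empty vector, 487 and 412 with shRNA1, and 62.5 and 111 with shRNA2. It rose by 2.08 ± 0.21 (adjusted p = 0.00126) with no overlap. Ddit4, an inhibitor of mTORC1, had 690 and 1450 with the empty vector, 5021 and 4438 with shRNA1, and 1480 and 1652 with shRNA2, so its shRNA2 arrays lay close to empty vector replicate 2. Its change was 1.44 ± 0.25 (adjusted p = 0.0111). Stc2 (1.79 ± 0.29) and the collagen prolyl hydroxylase P4ha1 (1.19 ± 0.16) rose as well, and Slc2a1 (-0.05), Vegfa (-0.35) and Ldha (0.29) did not pass. Against the mean of both controls the median was 0.68 with shRNA1 and 0.05 with shRNA2. Within the pairings it was 0.34 for shRNA2 minus empty vector replicate 1, the lower control, and 0.39 for shRNA1 minus empty vector replicate 2, the higher one. The count that rose was 22 without empty vector replicate 2, 6 without empty vector replicate 1 or Smc3 shRNA2 replicate 2, and 7 or 8 without the others. The part of the control arrays in this result was not tested beyond these values.

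Immediate early genes showed a similar spread. Of 27 measured genes 7 rose and 1 (Myc) fell, and the controls differed by a median of 0.23. Fos had 79.8 and 149 with the empty vector, 314 and 274 with shRNA1, and 160 and 139 with shRNA2, so that 1 array of shRNA2 lay between the controls. Zfp36, which destabilises mRNAs, rose by 1.25 ± 0.13, and Gadd45g by 1.24 ± 0.10, the latter with 74.3 and 77.0 with the empty vector and 160.5 to 198 on the depleted arrays. The count that rose was 3 without either Smc3 shRNA2 array, 4 without empty vector replicate 1 or either Smc3 shRNA1 array, and 10 without empty vector replicate 2.

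Of 50 measured genes of S phase and replication, 8 fell (16%, against 3.95% of all genes) and 0 rose. The median was -0.17, and 48 of the 50 changes were below 0. Dim genes are seldom called, and of the 49 members that were not dim 8 fell, beside 593 of all 9721 such genes. Cdc6, which loads the replicative helicase, had 850 and 833 with the empty vector, 362 and 401 with shRNA1, and 640 and 515 with shRNA2, a change of -0.85 ± 0.11 (adjusted p = 0.00396). E2f2 (-0.51), cyclin E1 (Ccne1, -0.50) and the histone mRNA binding protein Slbp (-0.45) fell, and Pcna (-0.15) and Mcm2 (-0.12) did not pass. This count was 14 with an offset of 16, in the fit of all 10 arrays or without dim probe sets, and it dropped to 1 without Smc3 shRNA2 replicate 2, to 2 without Smc3 shRNA2 replicate 1, to 3 without empty vector replicate 1 or either Smc3 shRNA1 array, and to 6 without empty vector replicate 2, and only Cdc6 kept its call among those named. Of 51 genes of G2 and mitosis 1 fell (Cenph, -0.48) and 0 rose.

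Targets of p53, which damaged DNA activates, gave 8 rises and 1 fall among 26 measured genes, with a median of 0.17. The death receptor Fas had 14.1 and 16.2 with the empty vector, 41.0 and 60.9 with shRNA1, and 19.6 and 19.4 with shRNA2, a rise of 1.04 ± 0.15. Ccng1 (0.56 ± 0.09) had 3578 and 3671 with the empty vector and 5054 to 5764 on the depleted arrays, and Plk2 (0.67) and Eda2r (0.64) rose with both hairpins. Cdkn1a, which encodes p21 and is the best known of these targets, was at 0.07 and Mdm2 at 0.13, and neither passed. Tigar, which lowers glycolytic flux, fell by 0.96 ± 0.10. Without single arrays 3 (empty vector replicate 1), 4 (Smc3 shRNA1 replicate 1 or Smc3 shRNA2 replicate 1), 6 or 8 members rose.

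Imprinted genes and histone genes also rose more often than they fell. Of 34 measured imprinted genes 9 rose and 2 fell. Cdkn1c (p57), a maternally expressed inhibitor of the cell cycle, had 112 and 127 with the empty vector, 235 and 182 with shRNA1, and 254 and 250 with shRNA2, a rise of 0.94 ± 0.12 (adjusted p = 0.00348). Phlda2, a neighbour of Cdkn1c in the same imprinted cluster, had 790 and 1088 with the empty vector and 1393 to 1926 on the depleted arrays, a rise of 0.83 ± 0.13 (adjusted p = 0.0087). The depleted arrays were above both controls for both genes. Igf2r (0.69), Gnas (0.59) and Meg3 (0.52) rose, Zdbf2 (-0.68) and Plagl1 (-0.50) fell, and Igf2 (-0.13) did not pass. The number that rose was 4 without either Smc3 shRNA2 array, 5 without either Smc3 shRNA1 array, 6 without empty vector replicate 2 and 7 without empty vector replicate 1. Of 9 measured replication-dependent histone genes 5 rose, led by the linker histone H1f2 (0.93 ± 0.09), which had 305 and 277 with the empty vector and 528 to 582 on the depleted arrays. Without single arrays 2 or 3 of the histone genes rose, with 2 without empty vector replicate 1, Smc3 shRNA1 replicate 2 or either Smc3 shRNA2 array. The histone genes are close paralogs, and cross-hybridisation was not tested.

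**Figure D4:**
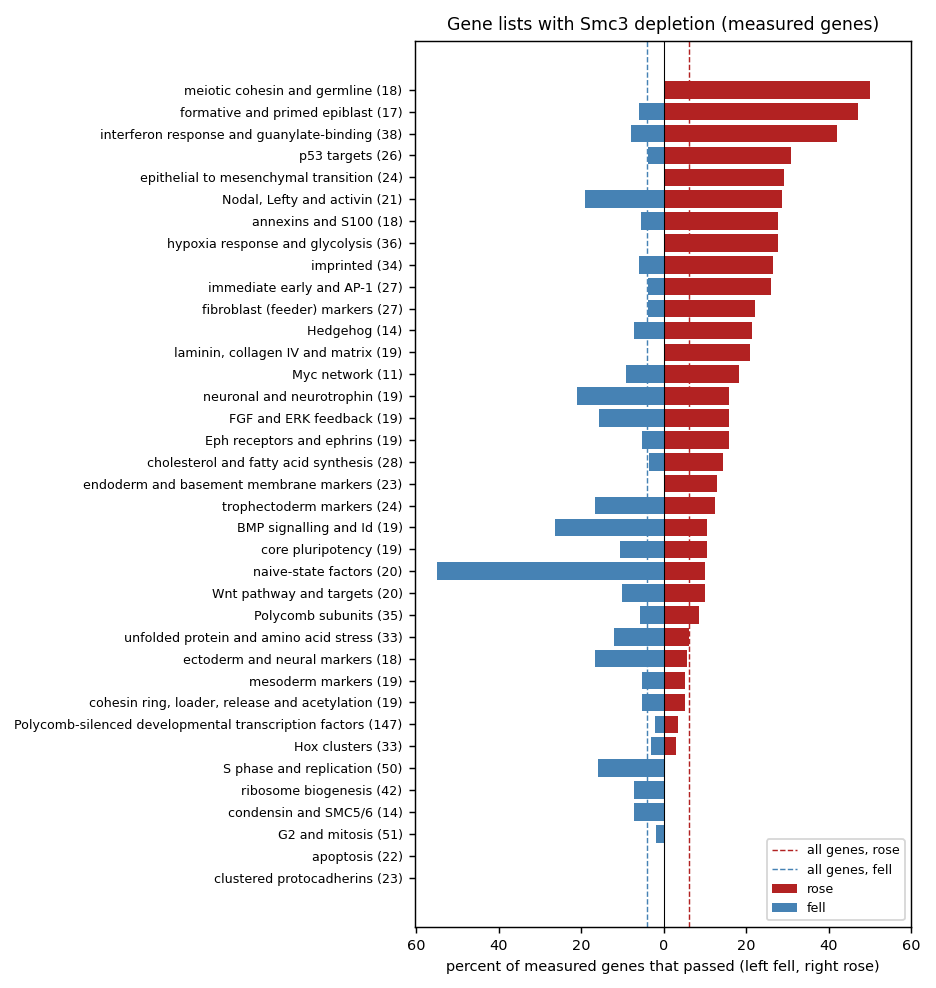
Percent of the measured genes of each list (number in parentheses, lists with 10 or more) that rose (red, right) or fell (blue, left) with Smc3 depletion, with dashed lines at the shares over all genes, 6.12% and 3.95%. Meiotic cohesin and germline genes (9 of 18), formative and primed genes (8 of 17) and interferon genes (16 of 38) have the longest red bars, and naive-state factors (11 of 20) the longest blue bar.

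Each hairpin was also compared with the empty vector alone. With Smc3 shRNA1, 1359 genes were higher (7.47%) and 755 lower (4.15%), and with Smc3 shRNA2, 911 were higher (5.01%) and 834 lower (4.58%). Both comparisons use the same 2 control arrays. Of the genes called, 373 were higher and 286 were lower with both hairpins, and 43 were called in opposite directions. Put directly against each other, 1431 genes were higher with shRNA1 than with shRNA2 (7.87%) and 848 were lower (4.66%), more genes than the 1832 called with depletion. These counts moved by over 1.5 times when an array of either hairpin was left out.

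The genes with the clearest difference between the hairpins included Gbp2, Gbp2b, Gbp3, Krt19 and Tmem30b on the side of shRNA1. Tmem30b, a subunit of phospholipid flippases, had 65.6 and 94.0 with the empty vector, 542 and 542 with shRNA1, and 82.7 and 90.2 with shRNA2, so that its shRNA2 arrays lay between the controls. On the side of shRNA2 were Dusp4, Pcdh8, Gm7008, 0610040B10Rik and Gm26760. The adhesion molecule Pcdh8 had 46.9 and 38.3 with the empty vector, 38.2 and 45.3 with shRNA1, and 206 and 156 with shRNA2. Gm7008 had 20.97 and 18.3 with the empty vector, 16.7 and 16.8 with shRNA1, and 102 and 114 with shRNA2. For Tmem30b, Pcdh8 and Gm7008, 1 hairpin stayed within or near the controls while the other moved away from them, and the mean over both hairpins passed all the same (1.46, 1.02 and 1.12). With the pairing of control and hairpin arrays as a term these 3, Krt19, Dusp4 and 0610040B10Rik no longer passed. These genes were picked for a large difference between the hairpins, which that model counts as spread, so the loss was largely set in advance.

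In the model of all 10 arrays, Smc3 depletion was compared with Wapal depletion. The control arrays do not enter the log2 differences of this contrast, but they enter the spread behind its SE and p-values. With Smc3 depletion 2727 genes were higher (15%) and 1376 were lower (7.56%). The balance of these counts depended on the normalization. By probe set 4798 were higher and 3022 lower, whereas with quantile normalization of the 10 arrays 3959 were higher and 3364 lower. The Smc3 arrays form the later run of sample numbers, so a difference between the runs could not be told apart from this contrast, and was not tested. Both targeted genes differed, with Smc3 lower by 2.93 on the log2 scale and Wapl higher by 2.57 ± 0.07 in the cells depleted of Smc3 (adjusted p = 2.65e-08 for each). The genes that rose most with Smc3 depletion were mostly higher there than with Wapal depletion. They were picked for their rise on the same Smc3 arrays, so this direction was largely set by the choice. Lefty1 was higher by 1.88 (adjusted p = 5.92e-06), Hs6st2 by 2.40, Glod5 by 2.28, Dmkn by 1.83, Gbp2 by 1.70 and Lef1 by 1.00. Inhbb (-1.95), Fam43a (-1.67), Mras (-1.50) and Ccnd1 (-1.23), picked for their fall, were lower. Many of these genes also changed with Wapal depletion against the empty vector (limma, adjusted p under 0.05). Lefty1 (1.18), Hs6st2 (1.03), Dmkn (0.53), Gbp2 (1.87) and Lef1 (1.38) rose there, and Inhbb (-0.93) and Ccnd1 (-0.43) fell. Glod5 (-0.15), Fam43a (-0.00023) and Mras (-0.32) did not pass there. Differences between the depletions that did not pass were those of Myc (-0.05 ± 0.12, adjusted p = 0.805), Klf4 (-0.04 ± 0.08, adjusted p = 0.812) and Anxa2 (0.05 ± 0.18, adjusted p = 0.887). Spink10, which rose with Smc3 depletion, was lower than with Wapal depletion, by 1.16 on the log2 scale (adjusted p = 0.000318). Of the naive-state factors, Prdm14 (-1.05), Gbx2 (-0.98) and 3 others were lower with Smc3 depletion than with Wapal depletion and 2 were higher. Of the formative and primed genes 6 were higher and 2 lower, and Pou3f1 (1.12) and Otx2 (0.99) were among the former. For the interferon list these counts were 15 and 4, and for the p53 targets 14 and 2.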

How the data were processed

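The authors deposited linear intensity values, 1 for each probe set, obtained with RMA, which subtracts background, quantile-normalizes and summarises the probes. The version of RMA and which arrays were normalized together are not given in the sources used here. Since quantile normalization gives every array a common distribution, a shift shared by most genes is removed. Apart from this, differences of dim probe sets can be compressed, as signal and background are hard to separate there. Of 45101 probe sets, 64 control sets were left out. Genes were named from the 34945 probe sets with 1 symbol in the platform annotation (932 have several and 9160 none there), of which 34741 matched RefSeq (GRCm38.p6) by gene ID with the same symbol and 204 were not found.

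The log2 of these values entered a limma 3.58.1 (R 4.3.3) model of group means on the 6 arrays, and on all 10 for the comparison with Wapal depletion. Groups came from the sample labels. Tests were two-sided, adjusted by Benjamini-Hochberg over 45037 probe sets, with a threshold of 0.05 and no filter on intensity. The scripts were tested on simulated data. Named genes were both targets, the first 15 in each direction among genes over 1.5-fold with each hairpin, up to 6 members of each of 40 gene lists in each direction, genes of interest to the study, and the first 5 between hairpins and 10 between depletions in each direction; other list members were named after their values were seen. The comparison, the lists and the alternatives were chosen with earlier results of these data known. The lists, written from textbook knowledge apart from the genes the study followed, hold 978 measured of 1160 listed genes. Alternatives tried were quantile normalization, an offset of 16 before log2, all 10 arrays in the model, array weights, a replicate block, the pairing of control and hairpin arrays, dim probe sets left out, the mean of all probe sets of a gene, and each array left out in turn. Promoter windows came from RefSeq.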

Additional observations from a re-analysis of the deposited data

Results flagged for a closer look

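Differences over 1 in log2 that passed (limma, adjusted p under 0.05) between the hairpins or between the depletions were looked for among the targets, the genes that changed most with both hairpins and the genes of interest to the study, and 33 values met this. Between the hairpins, shRNA1 minus shRNA2 was 3.76 for Gbp2, 3.69 for Gbp2b, 1.35 for Irgm1, 2.43 for Adm and 1.67 for Ppp1r3c. It was 1.20 for Cthrc1 and 1.03 for Glod5, and it was -1.09 for Hs6st2 and -1.15 for Myc.

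Between the depletions, Smc3 minus Wapal was -2.93 for Smc3 and 2.57 for Wapl, the targeted genes. Among genes that rose most with Smc3 depletion it was 2.40 for Hs6st2, 2.28 for Glod5, 1.88 for Lefty1, 1.83 for Dmkn, 1.79 for Gm364, 1.70 for Gbp2, 1.39 for Cthrc1, 1.37 for Gbp2b, 1.32 for Fgfbp1, 1.24 for Pim2, 1.20 for Pxdn, 1.17 for Irgm1 and 1.00 for Lef1, and it was -1.16 for Spink10. Among genes that fell most it was -1.95 for Inhbb, -1.67 for Fam43a, -1.50 for Mras, -1.23 for Ccnd1, -1.20 for Car2, -1.15 for Gsta3, -1.10 for 2210409E12Rik and -1.01 for Tfap2c. These genes were picked for their change on the same Smc3 arrays, which favours these directions.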

How the results depend on the processing

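The counts of probe sets called, 1900 that rose and 1534 that fell with Smc3 depletion, stayed within 1.5 times under quantile normalization, an offset of 16 before log2, a fit of all 10 arrays, array weights, the array pairing of the controls as a term, and without dim probe sets. Same-numbered replicates did not deviate together (r of -0.156, 0.057 and -0.019 across probe sets), so the numbers do not pair the samples, and with a replicate block the counts were 1720 and 1349. Leaving out each array in turn gave 893 to 2134 that rose and 641 to 2065 that fell with depletion, 696 to 3018 and 373 to 2774 with shRNA1 (2328 and 1585 with all arrays), and 341 to 1671 and 317 to 1758 with shRNA2 (1721 and 1723). Between the hairpins it gave 563 to 3392 higher and 275 to 2736 lower with shRNA1 (2635 and 1819), and against Wapal depletion 3291 to 3983 higher and 1673 to 2102 lower with Smc3 depletion (4798 and 3022). The highest counts for depletion were those without empty vector replicate 2 and the lowest those without Smc3 shRNA2 replicate 2, and leaving out any of the 6 arrays other than empty vector replicate 2 lowered both counts by over 1.5 times. The cause was not tested. Leaving out an array leaves a group with a single array, which is assumed to vary like the others. Of 200 named genes that passed, 117 kept their call without each of the 6 arrays. The sign turned for 6 genes in a single pairing of hairpin and control: with shRNA2 minus empty vector replicate 1, Neurod1 lay at -0.22, Krt19 at -0.16 and Cldn7 at -0.27, and with shRNA1 minus empty vector replicate 2, Xaf1 lay at 0.0065, Gm7008 at -0.13 and 0610040B10Rik at -0.17. With the pairing as a term fewer members passed also of the annexins and S100 proteins (3 rose), the fibroblast genes (3), the developmental transcription factors (3), the FGF and ERK genes (1 fell) and those of S phase (5 fell), and Socs3, Mycn, Neurod1, Cenph, Igf2r and Cldn7 lost their calls. The genes of ribosome biogenesis that fell numbered 12 with the offset, 8 with all 10 arrays and 15 without dim probe sets. The mean over the probe sets of a gene was smaller than the change of the brightest by over 1.5 times for several, among them Inhbb (-1.59), Tfcp2l1 (-0.36), Esrrb (-0.46), Grhl2 (0.28), Ptch1 (0.67), Anxa2 (0.68), Psmb8 (0.71), Stc2 (1.17) and Gnas (0.13), and the offset did this to Dmkn (1.54), Twist1 (0.38), Wt1 (0.38) and Fas (0.64). List medians moved by no more than the median SE of their single genes in 531 of 560 cases. These cases include the fit of all 10 arrays, the replicate block, the pairing term and array weights. Those settings leave every change as it was, so the medians could not move under them. Dim probe sets, with a mean log2 under 6 for 8472 of the 18193 genes, limit what could be seen for silent genes.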

Other observations

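Genes of the extracellular matrix and of ephrin signalling, not described above, gave some further calls. Of 19 measured genes of laminins, collagen IV and matrix 4 rose and 0 fell, led by the basement membrane protein Nid2, which had 885 and 1008 with the empty vector, 1470 and 1561 with shRNA1, and 2368 and 1796 with shRNA2, a rise of 0.90 ± 0.13 (limma, adjusted p = 0.00501). The count was 1 without empty vector replicate 1 or Smc3 shRNA1 replicate 1, and 2 or 3 without the others. Of 19 ephrins and Eph receptors 3 rose and 1 (Epha4) fell. The ligand Efnb2 had 102 and 103 with the empty vector and 181 to 258 on the depleted arrays, a rise of 1.02 ± 0.11 (adjusted p = 0.00173), and the receptor Epha1 rose by 0.96 at low levels. The number that rose was 1 without Smc3 shRNA2 replicate 2 and 2 or 3 without the others. Among 28 genes of cholesterol and fatty acid synthesis 4 rose and 1 fell, with Cyp51 at 0.76 ± 0.10 (adjusted p = 0.0033) and Ebp at -0.74 ± 0.10 (adjusted p = 0.0049), and 1 rose without any array other than empty vector replicate 2, without which 3 did. Of 42 measured genes of ribosome biogenesis 3 fell and 0 rose, with a median of -0.22, and 1 fell without empty vector replicate 1 or Smc3 shRNA2 replicate 2. Of the cholesterol and fatty acid synthesis genes 14.3% rose and 3.57% fell, against 6.12% and 3.95% of all genes. None of the 42 ribosome biogenesis genes was dim, and 7.14% of them fell. Of all 9721 genes that were not dim 593 fell. Among 19 neuronal genes 3 rose and 4 fell, the latter including the tubulin-binding Stmn3, which had 273 and 250 with the empty vector and 64.8 to 104 on the depleted arrays, a change of -1.65 ± 0.10 (adjusted p = 0.000139), and the opioid precursor Penk (-1.13 ± 0.12). Of these, 1 or 2 rose and 3 or 4 fell without single arrays, with 1 rising without empty vector replicate 1, Smc3 shRNA1 replicate 1 or either Smc3 shRNA2 array.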
